A study of Mus musculus with 28 samples.

Results

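Histone H3 acetylated at lysine 27 (H3K27ac) was examined at the 43 mouse genes that encode collagen chains, out of 22380 protein-coding genes and 37310 genes in all of the annotation used. The members were chosen by name, as every protein-coding gene whose symbol reads Col, a number, a and a number. A peak was given to a collagen gene when its summit lay within 100 kb of a start site of that gene and nearer to it than to any other start site. Of 893719 peaks summed over the libraries, 1896 met this rule. They merged into 228 of 89050 regions, which lay nearest to 32 of the 43 genes.

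The cells were NMuMG/E9, a single subclone of an untransformed mouse mammary gland epithelial line that undergoes epithelial to mesenchymal transition (EMT) when exposed to TGF-β. In all, 5 conditions with 3 libraries each were compared. Cells at 0h were untreated. Cells at 4h and 24h received DMSO and then 2 ng/ml TGF-β for that time, and the cells of ERKi 4h and ERKi 24h were given 25 µM UO126 for 30 min before the same TGF-β. UO126 blocks the kinases that activate ERK, and DMSO is its solvent. No group was kept for 4h or 24h without TGF-β. Against 0h, the effects of TGF-β, solvent and time in culture cannot be told apart. Each library held between 50445 and 69180 peaks, and the median peak of a library rested on 38 to 57 fragments at its summit. Total read numbers are unknown. The labels do not say whether replicates were separate cultures, so p-values measure the spread between these libraries. The inhibitor comparison at 24h and the comparison of 24h with 0h share the 24h libraries, and all comparisons against 0h share the untreated ones.

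Collagens are triple-helical proteins of the extracellular matrix, and cells that pass through EMT are known for making more of them. Fibril-forming collagens such as types I, III and V give tissue its tensile strength, the type IV collagens form the network of basement membranes under epithelia, type VI forms beaded filaments, and type VII forms the anchoring fibrils that tie epithelial basement membranes to the stroma. H3K27ac marks active promoters and enhancers, so a peak marks chromatin in an active state and is no measure of mRNA.

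The libraries carried some of the marks of an epithelial line. Within 2500 bp of their start sites Cdh1, Krt7, Krt8, Krt18 and Krt19 had a peak in all 15 libraries, which made 5 of the 9 epithelial markers, whereas Epcam had none and Cldn3 had one in 1 library. The other two claudins moved with time in opposite directions: Cldn4 had a peak in no 0h library and in all 3 of 24h, and Cldn7 in all 3 of 0h and in none of 24h. No peak was called within that distance of the 4 endothelial markers, and of 4 blood markers Csf1r alone had one, in the 3 libraries of ERKi 24h. Of 5 fibroblast markers, Pdgfra had a peak in 3 libraries, Pdgfrb in 1, and Dcn, Lum and Thy1 in none. The reading planned for these markers was a narrower promoter window, from 1000 bp before to 100 bp after a start site. There 3 of the 9 epithelial markers had a peak in all 15 libraries, and 4 (Epcam, Krt18, Cldn3 and Cldn7) had none.

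Most of the acetylated regions lay inside the collagen genes rather than at their starts. The 11 members without any region were Col1a2, Col3a1, Col5a3, Col11a1 and Col11a2 of the fibril-forming class, and also Col4a6, Col9a1, Col9a3, Col13a1, Col19a1 and Col25a1. Of the 228 regions, 153 (67.1%) had their summit in an intron, 57 (25%) lay between genes, 15 in an exon and 3 in an untranslated region, and 163 lay inside a collagen gene. Only 12 regions were promoter regions, with a summit from 1000 bp before to 100 bp after a start site, and 214 were distal, outside every promoter. The other 2 lay in the promoter of another gene. The places of all regions were not counted, so these numbers do not set collagen genes apart from other genes. Of the 228 regions, 50 were each called in only a single library, and 43 held a peak in all 15 libraries. Among all 89050 regions, 20144 were called in only a single library and 26934 held a peak in all 15. The share of regions called in a single library was thus similar, and a peak in every library was less common among the collagen regions.

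The start sites divided the members into 3 sets. Within 2500 bp of a start site, 11 members had a peak in all 15 libraries (Col1a1, Col4a1, Col4a2, Col4a5, Col4a6, Col6a1, Col6a3, Col15a1, Col16a1, Col18a1 and Col27a1), 11 had one in some libraries and 21 had none. Col4a6 and Col4a5, like Col4a1 and Col4a2 and also Col4a3 and Col4a4, are transcribed away from each other from neighbouring starts, so 1 peak there lies at the start of both genes. The peak at the starts of Col4a5 and Col4a6 was nearer to Col4a5, which left Col4a6 without a region. Some of the starts are those of shorter transcripts that begin inside a gene, as at Col6a3. Within the narrower promoter window 14 members had a peak in any library, and Col1a1 alone had one in all 15. The shares among all genes were not computed for these counts, which describe the collagen genes alone. Percentiles in that window drop to 0 where a summit moves past its edge, as at Col15a1 and Col4a1, and the wider window is therefore given beside it.

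The sequences of 7 regions that the following results turn on are given as windows of 201 bp centred on the summit, on the + strand of NCBIM37, the mm9 assembly. They are the promoter of Col7a1 and the region of the strongest rise, inside the same gene; the region at the start of Col1a1, in front of an internal start site; a region beyond the 3′ end of Col6a3 that was called in the 24h libraries and no others; 2 regions that were higher at 24h and lower with the inhibitor, in Col4a2 and Col6a5; and a region of Col18a1 with the reverse pattern. Capitals mark the letters of TGANTCA (AP-1), GTCTG (a SMAD element), TGTGGT (RUNX), GGAATG (TEAD) or CAGGTG (the E-box bound by Snail and Zeb factors) on either strand, and matches of different motifs may overlap.

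Col7a1 promoter (chr9:108854949-108855149): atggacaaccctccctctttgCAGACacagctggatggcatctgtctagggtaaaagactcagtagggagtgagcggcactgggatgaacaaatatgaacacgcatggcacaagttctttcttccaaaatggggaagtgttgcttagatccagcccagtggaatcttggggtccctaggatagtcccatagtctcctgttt
Col7a1 24.1 kb inside the gene (chr9:108879655-108879855): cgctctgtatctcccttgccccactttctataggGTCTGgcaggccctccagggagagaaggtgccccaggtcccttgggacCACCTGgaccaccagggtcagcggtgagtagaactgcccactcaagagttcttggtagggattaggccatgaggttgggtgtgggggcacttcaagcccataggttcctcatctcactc
Col1a1 start (chr11:94798272-94798472): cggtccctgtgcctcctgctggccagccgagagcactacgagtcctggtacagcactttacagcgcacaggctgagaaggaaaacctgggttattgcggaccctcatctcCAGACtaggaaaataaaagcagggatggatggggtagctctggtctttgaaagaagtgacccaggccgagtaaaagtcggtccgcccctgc
Col6a3 beyond the 3′ end (chr1:92635017-92635217): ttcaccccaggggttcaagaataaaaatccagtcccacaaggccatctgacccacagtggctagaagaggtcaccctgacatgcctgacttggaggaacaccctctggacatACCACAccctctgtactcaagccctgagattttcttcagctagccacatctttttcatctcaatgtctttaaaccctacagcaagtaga
Col4a2 intron (chr8:11371833-11372033): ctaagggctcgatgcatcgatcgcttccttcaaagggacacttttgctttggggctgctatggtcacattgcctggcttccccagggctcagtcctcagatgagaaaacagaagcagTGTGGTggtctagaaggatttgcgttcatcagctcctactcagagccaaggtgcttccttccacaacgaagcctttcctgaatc
Col6a5 intron (chr9:105826444-105826644): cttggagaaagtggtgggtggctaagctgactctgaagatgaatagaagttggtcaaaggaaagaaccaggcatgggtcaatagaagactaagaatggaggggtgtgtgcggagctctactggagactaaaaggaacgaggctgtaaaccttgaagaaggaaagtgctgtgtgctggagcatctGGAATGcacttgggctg
Col18a1 intron (chr10:76587968-76588168): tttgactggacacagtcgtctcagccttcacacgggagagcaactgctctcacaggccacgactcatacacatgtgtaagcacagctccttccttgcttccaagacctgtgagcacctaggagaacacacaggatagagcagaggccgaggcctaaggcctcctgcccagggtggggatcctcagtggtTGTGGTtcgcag

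Matches were about as common in the collagen regions as in windows of the same length around all 89050 regions. AP-1 letters were found in 5.70% of the 228 collagen windows and 5.78% of all windows, SMAD elements in 45.6% and 41.9%, RUNX letters in 14.5% and 14.1%, TEAD letters in 8.77% and 10.9%, and the E-box in 19.3% and 15.5%. These shares describe letters and not bound factors. None of the 7 windows printed held the AP-1 letters.

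To compare the number of acetylated elements around collagen genes between the conditions, distal peaks were counted per library. At 0h the 43 genes together had 93, 81 and 104 distal peaks in the 3 libraries, and at 4h they had 89, 93 and 119. At 24h they had 152, 123 and 169, above every library of 0h and 4h. The means were 92.7 ± 11.5 (SD, n = 3) at 0h, 100 ± 16.3 at 4h and 148 ± 23.3 at 24h. Per 1000 distal peaks of the library, 2.24 ± 0.170 belonged to collagen genes at 0h, 2.29 ± 0.0811 at 4h and 3.11 ± 0.443 at 24h, so the 24h libraries were also higher as a share of all distal peaks. Among peaks with a -log10 q of at least 10 the mean difference between 24h and 0h was 33.0 peaks in place of 55.3, and among the 40000 peaks of each library with the highest -log10 p it was 28.0. With the inhibitor there were 107, 99 and 120 distal peaks at 4h and 151, 109 and 163 at 24h, with means of 109 ± 10.6 and 141 ± 28.4. Both inhibitor ranges overlapped those of DMSO at the same time. Col6a3, Col27a1 and Col5a1 carried much of the difference. Without these 3 genes, which were singled out after their values were seen, the mean was 86.3 ± 10.0 at 0h, 111 ± 13.0 at 24h and 112 ± 20.4 at ERKi 24h.

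Gene by gene, no collagen gene had fewer distal peaks in every 24h library than in every 0h library, and 8 of 28 genes (28.6%) had more. Among all 17044 genes with a distal peak in these conditions, 12.5% had more and 4.51% had fewer. With a -log10 q of at least 10 the collagen genes with more numbered 4, and the share of all genes under that setting is not given here. The 8 genes were Col4a3, Col5a1, Col6a3, Col6a6, Col7a1, Col8a1, Col17a1 and Col27a1. With 3 libraries against 3, the exact permutation test cannot give a p below 0.1, which each of these genes reached. At 4h, Col4a3 and Col27a1 (2 of 26 genes, 7.69%) already stood above 0h without overlap and none stood below, against 4.36% and 1.29% of all genes.

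**Figure D1:**
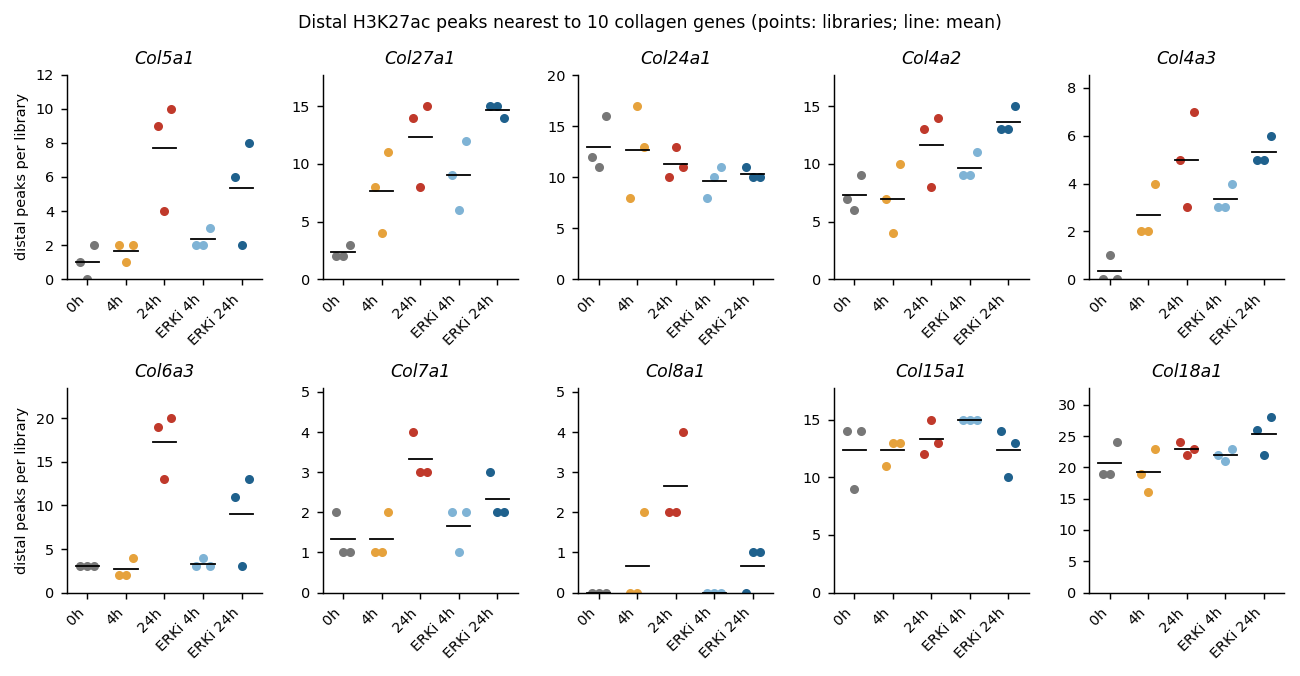
Number of distal H3K27ac peaks per library (vertical axis) for 10 collagen genes in the 5 conditions; points are libraries and lines are means. Col6a3 had 3 peaks in each 0h library and 13 to 20 in the 24h libraries, and 3 to 13 at ERKi 24h, while Col18a1 and Col15a1 held many peaks in every condition.

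The height of the peaks was compared over the regions that held a peak in every library. Height was taken as the number of fragments stacked at the summit, relative to the median of all 26934 regions tested in that library, and compared with limma. Of the 43 collagen regions tested, which belonged to 14 genes, 9 (20.9%) were higher and 5 (11.6%) were lower at 24h than at 0h at an adjusted p below 0.05. Among all regions tested, 10.3% were higher and 7.85% were lower. The median log2 difference was 0.25 over the collagen regions and -0.07 over all regions. At 4h 1 collagen region (2.33%) was higher and none was lower, against 3.62% and 0.197% of all regions, and 7 of the 43 had an unadjusted p below 0.05. The labels state no pairing, but same-numbered libraries deviated together across conditions and were treated as paired. With the replicate number as a block in the fit, 19 collagen regions were higher and 9 lower at 24h, and 10 were higher and 1 lower at 4h. Of all regions, that fit called 17.6% higher and 20.1% lower at 24h, and 11.8% higher and 5.87% lower at 4h.

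The deposited fold enrichment behaved differently from the number of fragments. It divides the fragments at the summit by a local background, and at the regions that passed the background moved together with the summit. The control from which that background was taken is not given in the sources used here. With fold enrichment as the measure, 1 collagen region was higher and 1 was lower at 24h, none was at 4h, and Col6a5 alone kept its call among the 14 regions that had passed. The share of all regions that passed with that measure is not given here, so these counts describe the collagen regions alone. The values below are therefore fragments at the summit, and the regions that changed sign with the other measure are named.

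**Figure D2:**
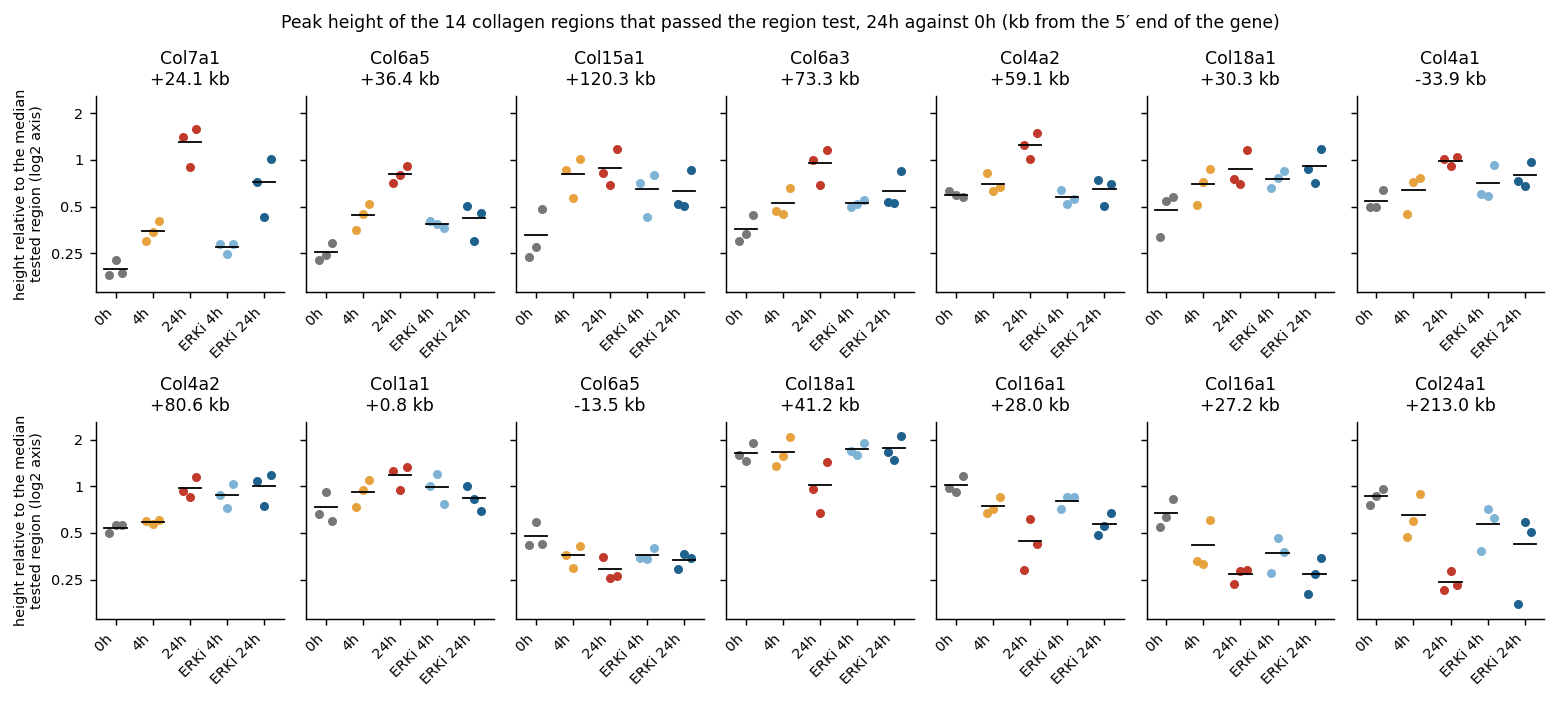
Height of the 14 collagen regions that differed between 24h and 0h, as a multiple of the median tested region of the library (log2 axis), with the distance from the 5′ end of the gene in kb; points are libraries and lines are means. The region 24.1 kb inside Col7a1 lay between 0.182 and 0.227 at 0h and between 0.900 and 1.59 at 24h, and the regions of Col4a2 at 59.1 kb and Col6a5 at 36.4 kb were lower at ERKi 24h than at 24h.

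The fibril-forming collagens had 50 regions and, at 6 of their 11 genes, distal peaks that numbered 17.3 ± 4.93 at 0h, 23.7 ± 5.13 at 4h, 33.7 ± 6.11 at 24h, 22.7 ± 4.73 at ERKi 4h and 31.3 ± 3.06 at ERKi 24h. Col27a1, a minor fibrillar collagen best known from cartilage, had 2, 2 and 3 distal peaks at 0h, 8, 4 and 11 at 4h and 14, 8 and 15 at 24h. The 4h libraries were already above the 0h libraries. With the inhibitor the numbers were 9, 6 and 12 at 4h and 15, 15 and 14 at 24h, which overlapped DMSO at each time. Inside the gene 7 regions were called in all 3 libraries of 24h and in none of 0h, 6 of them between 68.8 and 109.9 kb from its 5′ end, in the 3′ part of the 121.0 kb gene. The libraries of ERKi 24h each held 6 of the 7.

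The exception was the region 4.0 kb inside Col27a1 (chr4:62878835-62879377). Its peak rested on 86, 48 and 101 fragments at 24h and was called in no ERKi 24h library, while a region 18.5 kb inside the gene (chr4:62893005-62893805) was called in all 3 libraries of ERKi 24h and in none of 24h. Both lay in introns.

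Col5a1, the main chain of type V collagen, which sets the width of collagen I fibrils, had 1, 0 and 2 distal peaks at 0h, 2, 1 and 2 at 4h and 9, 4 and 10 at 24h. The 24h libraries stood apart from the earlier ones. At ERKi 24h it had 6, 2 and 8, which overlapped 24h. The 2 regions gained in every 24h library lay upstream of the gene, 43.2 and 43.8 kb before its 5′ end.

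Col1a1, the chain that makes up most of type I collagen, was the only member with a peak in the narrow promoter window in every library. The percentile of that peak among all peaks of the library was 57.6, 66.1 and 51.4 at 0h, 56.9, 68.4 and 76.4 at 4h and 78.5, 70.5 and 83.0 at 24h. All 24h libraries lay above all 0h libraries, and those of ERKi 24h, at 74.6, 61.7 and 62.5, overlapped both. Relative to the median tested region, its height was 0.664, 0.924 and 0.600 at 0h and 1.26, 0.943 and 1.33 at 24h. The peak (chr11:94797354-94799389, within an intron at 0.8 kb) was 1.62-fold higher at 24h, a log2 difference of 0.70 ± 0.24 (SE) with an adjusted p of 0.0495. This call was lost without any 1 of 10 libraries, with adjusted p up to 0.181, and with fold enrichment as the measure the log2 difference was -0.41. The fragments at the summit averaged 59.7 at 0h and 98 at 24h, and the local background 4.71 and 11.5. Col1a2, which encodes the partner chain, and Col3a1 had no region.

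Col24a1, a further minor fibrillar collagen, carried the region that fell most. This region, in an intron, had relative heights of 0.755, 0.864 and 0.960 at 0h and 0.213, 0.286 and 0.229 at 24h. It was 3.56-fold lower at 24h (log2 difference -1.83 ± 0.37, adjusted p = 0.00203), while with fold enrichment the difference was -0.14 and did not pass. At ERKi 24h the relative heights were split, at 0.174, 0.587 and 0.505. Against 0h these were also lower (log2 -1.20 ± 0.37, adjusted p = 0.0296), a call that was lost without any 1 of 4 libraries (adjusted p up to 0.187) and had a log2 difference of 0.19 with fold enrichment. Against 24h the difference of 0.63 ± 0.37 had an adjusted p of 0.379, and 0.0403 with the replicate block. The region 201.2 kb inside the gene was also lower at ERKi 24h than at 0h (log2 -0.83 ± 0.25, adjusted p = 0.0225), and this call was lost without any 1 of 4 libraries (adjusted p up to 0.0980). Of the other regions of Col24a1, 1 at 163.8 kb was called in all 0h and no 24h library, and 2, at 14.8 and 144.2 kb, were called in all 24h and no 0h library. The number of its distal peaks, 12, 11 and 16 at 0h and 10, 13 and 11 at 24h, overlapped.

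The 5 of 6 type IV genes of the basement membrane with a distal peak had 15.3 ± 2.08 such peaks at 0h, 18 ± 4.58 at 4h and 26.3 ± 6.66 at 24h. With the inhibitor they had 21.3 ± 3.21 at 4h and 30 ± 3.61 at 24h. Col4a1 and Col4a2 encode the 2 chains of the common type IV heterotrimer and share 1 locus. Their distal peaks together numbered 14, 12 and 16 at 0h and 22, 15 and 22 at 24h, which overlapped (exact permutation p = 0.200). At ERKi 24h they numbered 21, 19 and 23, above every 0h library. Because the nearest start decides the assignment, regions inside Col4a2 may be counted for Col4a1, and both are described as 1 locus here.

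In introns of Col4a2, 3 regions were higher at 24h than at 0h, and 3 others were called in every 24h library and no 0h library. At 59.1 kb (chr8:11371012-11372996) the relative height was 0.627, 0.591 and 0.573 at 0h, 0.819, 0.627 and 0.667 at 4h and 1.24, 1.01 and 1.49 at 24h. With the inhibitor it was 0.643, 0.523 and 0.563 at 4h and 0.743, 0.508 and 0.695 at 24h, so that the 24h libraries in DMSO stood alone. The region was 2.07-fold higher at 24h than at 0h (log2 1.05 ± 0.21, adjusted p = 0.00193) and 1.93-fold lower at ERKi 24h than at 24h (log2 -0.95 ± 0.21, adjusted p = 0.0110). The latter call was lost without ERKi 24h replicate 2 (adjusted p = 0.0564), and with fold enrichment both differences were near 0, at -0.00295 and -0.01. At ERKi 24h the region differed from 0h by 0.10 ± 0.21 on the log2 scale.

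A region further into Col4a2 had another pattern. At 80.6 kb (chr8:11392239-11394230) the relative height was 0.5, 0.561 and 0.560 at 0h, 0.926, 0.857 and 1.14 at 24h and 1.08, 0.746 and 1.19 at ERKi 24h. It was 1.80-fold higher at 24h (adjusted p = 0.00943) and 1.83-fold higher at ERKi 24h (adjusted p = 0.00714), each against 0h, and the inhibitor difference at 24h was 0.03 ± 0.21 on the log2 scale. At 4h the inhibitor difference of 0.56 ± 0.21 had an adjusted p of 0.622, or 0.0310 with the replicate block, the only collagen region called in that comparison. With fold enrichment its difference at 24h was -0.32, of the opposite sign. Next to it, at 78.6 kb, a peak with 49, 32 and 68 fragments was called in every 24h library and in no library of the other conditions. A region 33.9 kb upstream of the Col4a1 start, also in a Col4a2 intron (chr8:11346135-11347367), was 1.82-fold higher at 24h (adjusted p = 0.0204), and this call was lost without any 1 of 4 libraries, with adjusted p up to 0.0760. The shared start region of the 2 genes was 1.48-fold higher at ERKi 24h than at 0h (adjusted p = 0.0203), a call lost without any 1 of 3 libraries (adjusted p up to 0.0820) and with a log2 difference of -0.03 by fold enrichment. Its difference between 24h and 0h had an adjusted p of 0.358. The inhibitor difference at 24h, 0.31 ± 0.16 on the log2 scale, did not pass either (adjusted p = 0.300).

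Col4a3 and Col4a4, chains of the type IV network found in kidney and lung, had almost no distal peaks in untreated cells. Together they had 0, 1 and 0 at 0h, 2, 2 and 6 at 4h and 5, 4 and 9 at 24h. The libraries of 4h and of 24h were above those of 0h (exact permutation p = 0.1 for each, the smallest possible). With the inhibitor the numbers were 3, 4 and 5 at 4h and 6, 6 and 7 at 24h, which overlapped DMSO. In an intron of Col4a3, 2 regions (chr1:82593405-82594518 and chr1:82595119-82595766) were gained in every 24h library. Col4a5, on the X chromosome, had 1, 0 and 1 distal peaks at 24h and 2, 2 and 4 at ERKi 24h, without overlap.

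Among the type VI collagens, Col6a3, the long chain of the type VI heterotrimer, showed the largest difference in number of all members. It had 3 distal peaks in each 0h library, 2, 2 and 4 at 4h, and 19, 13 and 20 at 24h. With the inhibitor it had 3, 4 and 3 at 4h and 11, 3 and 13 at 24h. The 24h mean of 17.3 was 14.3 peaks above that of 0h, and the 4h libraries overlapped 0h. The mean of 9 at ERKi 24h lay between. Its highest library reached the lowest library of 24h, so the 2 conditions overlapped as groups. Within each of the 3 replicate numbers, which were treated as pairs, the inhibitor library had fewer peaks (11 against 19, 3 against 13 and 13 against 20). With 3 pairs an exact permutation test cannot give a p below 0.25. ERKi 24h replicate 2, which had no more Col6a3 peaks than untreated cells, also had the fewest peaks of its condition, 56042 against 64660 and 69180.

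The peaks of Col6a3 fell into 19 regions, of which 8 were called in all 3 libraries of 24h and in none of 0h. They ran from 5.2 kb before the 5′ end, through introns at 8.6, 9.3 and 38.9 kb, to 4 sites at 80.2, 89.9, 105.4 and 114.1 kb, beyond the 3′ end of the 77.1 kb gene. The libraries of ERKi 24h held 5, 0 and 6 of these 8. The most distant pair, at 105.4 and 114.1 kb (chr1:92634951-92635452 and chr1:92626329-92626736), was called in no ERKi 24h library, and in no library of the other conditions either. These were small peaks, with 36, 15 and 27 fragments in the 24h libraries at the nearer site and 19, 16 and 23 at the farther one. At 8.6 kb (chr1:92731677-92732486) the peak rested on 93, 40 and 106 fragments at 24h, and on 23 and 16 in the 2 libraries of ERKi 24h that held it.

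The region that Col6a3 had in every library, in an intron near its 3′ end (73.3 kb, chr1:92666852-92668716), had relative heights of 0.300, 0.333 and 0.440 at 0h, 0.468, 0.448 and 0.655 at 4h and 1.00, 0.686 and 1.16 at 24h. It was 2.62-fold higher at 24h than at 0h (log2 1.39 ± 0.26, adjusted p = 0.00101). At ERKi 24h it stood at 0.532, 0.524 and 0.848, and the difference from 24h of -0.58 ± 0.26 had an adjusted p of 0.205, or 0.0116 with the replicate block. Against 0h the region was 1.75-fold higher at ERKi 24h (adjusted p = 0.0347), a call lost without any 1 of 3 libraries (adjusted p up to 0.176). Its local background averaged 3.84 at 0h and 12.4 at 24h, and its fold enrichment 6.23 and 6.29.

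**Figure D3:**
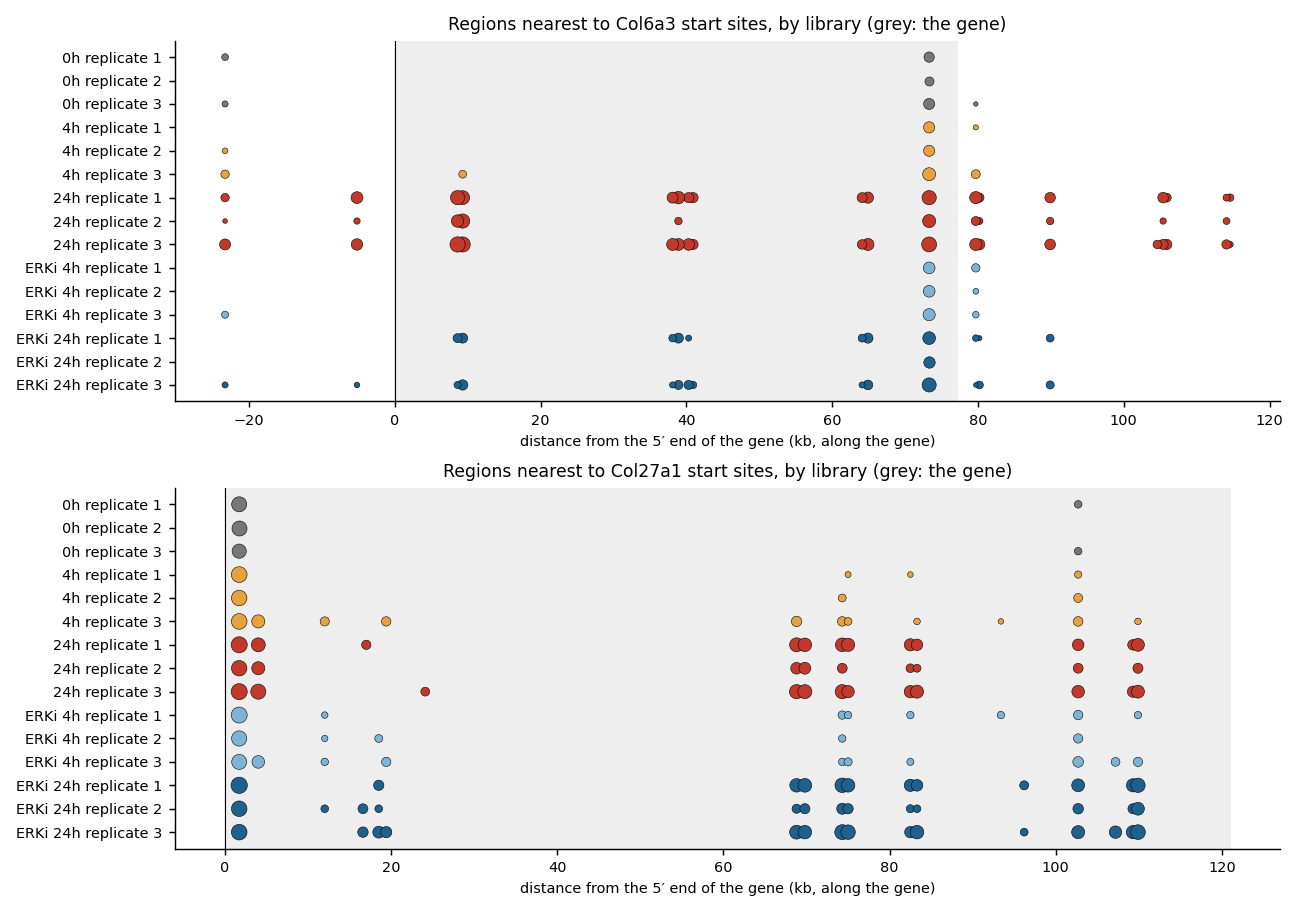
Regions nearest to Col6a3 and Col27a1 start sites in each of the 15 libraries (rows) by distance from the 5′ end of the gene in kb; a larger point is a higher percentile by fragments at the summit, a region can hold several peaks, and grey shading marks the gene. Col6a3 regions spread over the locus at 24h and partly at ERKi 24h, where replicate 2 held the region at 73.3 kb alone, whereas 6 of the 7 Col27a1 regions gained at 24h were also called in all 3 libraries of ERKi 24h.

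Col6a5 and Col6a6, less common type VI chains, lie side by side. A region in an intron 36.4 kb inside Col6a5 (chr9:105826198-105827366) had relative heights of 0.227, 0.242 and 0.293 at 0h, 0.351, 0.448 and 0.517 at 4h and 0.713, 0.8 and 0.916 at 24h. The libraries of the 3 times did not overlap. It was 3.18-fold higher at 24h (log2 1.67 ± 0.24, adjusted p = 9.37e-05), and with fold enrichment the difference of 0.92 also passed. With the inhibitor it stood at 0.405, 0.385 and 0.362 at 4h and 0.505, 0.302 and 0.457 at 24h. It was 1.96-fold lower at ERKi 24h than at 24h (log2 -0.97 ± 0.24, adjusted p = 0.0173) and 1.63-fold higher at ERKi 24h than at 0h (adjusted p = 0.0427). The former call was lost without 24h replicate 3 or ERKi 24h replicate 2 (adjusted p up to 0.0847) and the latter without any 1 of 7 libraries (adjusted p up to 0.179), and with fold enrichment neither passed (log2 -0.37 and 0.54). The region nearest to Col6a6 (chr9:105789540-105790198), in another intron of Col6a5, was called in all 3 libraries of 24h and in none of 0h or ERKi 24h. A region 13.5 kb upstream of Col6a5 was 1.64-fold lower at 24h (adjusted p = 0.0323), a call lost without any 1 of 3 libraries (adjusted p up to 0.152) and with a log2 difference of 0.39 by fold enrichment.

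Col6a1 and Col6a2, which complete the type VI heterotrimer, had no region that passed the region test or was gained or lost at 24h. Together they had 6, 4 and 5 distal peaks at 0h and 6, 3 and 9 at 24h.

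Col7a1, the anchoring fibril collagen, held the region with the largest difference in height, and its promoter was called in every 24h library and in no 0h library. That promoter (chr9:108854062-108856245) had no peak in the promoter window in any 0h library, and the percentile of its peak was 4.65, 0 and 4.30 at 4h and 70.0, 49.1 and 72.7 at 24h, where 0 stands for no peak. With the inhibitor no peak was called there at 4h, and the percentiles at 24h were 49.5, 12.6 and 48.8. The highest of these just exceeded the lowest library of 24h, and all exceeded 0h. Within 2500 bp the values were 0 in each library of 0h, 24.8, 0 and 31.7 at 4h, and 77.0, 49.1 and 88.6 at 24h. They were 15.6, 0 and 0 at ERKi 4h, and 49.5, 28.2 and 62.1 at ERKi 24h.

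A second element of Col7a1 lay 24.1 kb inside the gene, in an exon (chr9:108879225-108881326). Its relative height was 0.182, 0.227 and 0.187 at 0h, 0.298, 0.343 and 0.402 at 4h and 1.40, 0.900 and 1.59 at 24h. The 24h libraries stood above all 0h and 4h libraries. It was 6.39-fold higher at 24h than at 0h (log2 2.68 ± 0.29, adjusted p = 8.47e-06), the largest difference among the 43 regions tested, and it kept the call without each single library. At 4h the log2 difference of 0.80 ± 0.29 had an adjusted p of 0.164, and 0.00961 with the replicate block. With the inhibitor the region stood at 0.286, 0.246 and 0.287 at 4h and 0.716, 0.429 and 1.02 at 24h, and it was 3.43-fold higher at ERKi 24h than at 0h (adjusted p = 0.000293). The inhibitor difference at 24h, -0.90 ± 0.29, had an adjusted p of 0.0679, and 0.00262 with the block. The fragments at the summit averaged 16.3 at 0h and 109 at 24h, the local background 2.89 and 21.1, and the fold enrichment 4.45 and 5.22. Distal peaks of Col7a1 numbered 2, 1 and 1 at 0h, 4, 3 and 3 at 24h and 3, 2 and 2 at ERKi 24h.

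Of the short-chain collagens, Col8a1, a chain of the hexagonal networks under vascular and corneal endothelium, had no distal peak in any 0h library and 2, 2 and 4 at 24h. At 4h it had 0, 0 and 2. With the inhibitor it had none at 4h and 0, 1 and 1 at 24h, below every 24h library. Over both times the inhibitor difference was -1.33 peaks, with an exact permutation p of 0.05 (two-sided, labels exchanged within time) and an adjusted p over all genes of 1. A region in an intron 60.6 kb inside the gene was called in every 24h and no 0h library, on 13 to 20 fragments. Col10a1 had 1 to 3 distal peaks in each library, in introns of the gene Nt5dc1, and lost 1 region between 0h and 24h. Col8a2 had a peak in a single library.

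Col16a1, a member of the fibril-associated class, carried 2 neighbouring regions that were lower at 24h. The region 28.0 kb inside the gene (chr4:129752603-129753735) had relative heights of 0.973, 0.924 and 1.17 at 0h, 0.670, 0.716 and 0.851 at 4h and 0.287, 0.614 and 0.422 at 24h. Each of the 4h libraries lay below the 0h libraries and above those of 24h. It was 2.42-fold lower at 24h (log2 -1.28 ± 0.25, adjusted p = 0.00139) and 1.80-fold lower at ERKi 24h (adjusted p = 0.0210), each against 0h, the latter lost without any 1 of 3 libraries (adjusted p up to 0.0918) and opposite in sign with fold enrichment (0.25). The region 27.2 kb inside the gene was 2.46-fold lower at 24h (adjusted p = 0.00391) and 2.49-fold lower at ERKi 24h (adjusted p = 0.00339). Neither differed between ERKi 24h and 24h at the threshold, with log2 differences of 0.43 ± 0.25 and -0.02 ± 0.29. With fold enrichment the log2 differences at 24h against 0h were -0.03 at 28.0 kb and -0.05 at 27.2 kb, and neither passed.

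Col17a1, the transmembrane collagen of hemidesmosomes, had 0, 2 and 0 distal peaks at 0h and 3 in each library of 24h. At ERKi 24h it had 4, 3 and 5. Col12a1, which coats collagen I fibrils, had no distal peak in any library of 0h, 4h or ERKi 4h, 2, 0 and 2 at 24h and 3, 1 and 3 at ERKi 24h, and these overlapped. Col14a1 had 2 to 5 distal peaks in every library.

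The multiplexins Col15a1 and Col18a1, basement membrane zone collagens whose C-terminal parts give restin and endostatin, held 50 regions in all conditions. The most distal peaks of any member belonged to Col18a1, with 19, 19 and 24 in untreated cells, 24, 22 and 23 at 24h, and 26, 22 and 28 in the ERKi 24h libraries. These ranges overlapped, while single regions of the gene moved in opposite directions. Col15a1 had between 9 and 15 in every library.

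In Col18a1 a region in an intron 41.2 kb from the 5′ end (chr10:76587412-76588274) had relative heights of 1.60, 1.45 and 1.89 at 0h, 1.35, 1.57 and 2.07 at 4h and 0.957, 0.671 and 1.43 at 24h. With the inhibitor it stood at 1.70, 1.58 and 1.91 at 4h and 1.67, 1.48 and 2.12 at 24h, above all 24h libraries and overlapping 0h and 4h. It was 1.68-fold lower at 24h than at 0h (log2 -0.75 ± 0.23, adjusted p = 0.0303) and 1.78-fold higher at ERKi 24h than at 24h (log2 0.84 ± 0.23, adjusted p = 0.0343), with a difference of 0.08 ± 0.23 between ERKi 24h and 0h. Each of the 2 calls was lost without any 1 of 4 libraries, with adjusted p up to 0.147 and 0.152, and with fold enrichment neither passed (log2 -0.4 and 0.14). A region at 50.1 kb was 1.88-fold higher at ERKi 24h than at 24h (adjusted p = 0.0308), likewise lost without any 1 of 4 libraries (adjusted p up to 0.153) and with a log2 difference of -0.03 by fold enrichment.

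Other Col18a1 regions were higher at 24h. At 30.3 kb (chr10:76598738-76599555) the height was 1.83-fold higher at 24h (adjusted p = 0.0390) and 1.94-fold higher at ERKi 24h (adjusted p = 0.0222) than at 0h, and each call was lost without any 1 of 3 libraries (adjusted p up to 0.206 and 0.124). A pair of adjoining regions 32.5 and 33.3 kb upstream of the gene was called in all 3 libraries of 24h and none of 0h. The nearer one rested on 94, 20 and 90 fragments at 24h and was called in no inhibitor library. The region at 82.1 kb was called in no 0h library and in all libraries of 24h, ERKi 4h and ERKi 24h.

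Col15a1 gave the single call at 4h. A region between genes, 120.3 kb from its 5′ end and past its 3′ end (chr4:47340258-47342624), had relative heights of 0.236, 0.273 and 0.480 at 0h, 0.862, 0.567 and 1.02 at 4h and 0.819, 0.686 and 1.17 at 24h. It was 2.53-fold higher at 4h (log2 1.34 ± 0.33, adjusted p = 0.0266) and 2.77-fold higher at 24h (adjusted p = 0.00401). The call at 4h was lost without any 1 of 4 libraries, with adjusted p up to 0.164. At ERKi 24h the region was 1.95-fold higher than at 0h (adjusted p = 0.0473), lost without any 1 of 8 libraries (adjusted p up to 0.200). With fold enrichment the differences at 4h and 24h were -0.08 and -0.17, and the local background averaged 5.56 at 0h, 17.0 at 4h and 19.8 at 24h. At 71.4 kb, in an intron, a region was 2.38-fold higher at ERKi 24h than at 0h (log2 1.25 ± 0.27, adjusted p = 0.00280), and here fold enrichment gave a difference of the opposite sign, -0.38, that passed the same threshold. In DMSO this region was 1.70-fold higher at 24h than at 0h (adjusted p = 0.0556, or 5.39e-05 with the replicate block). The inhibitor difference at 24h, 0.48 ± 0.27 on the log2 scale, had an adjusted p of 0.341, or 0.00946 with the block.

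**Figure D4:**
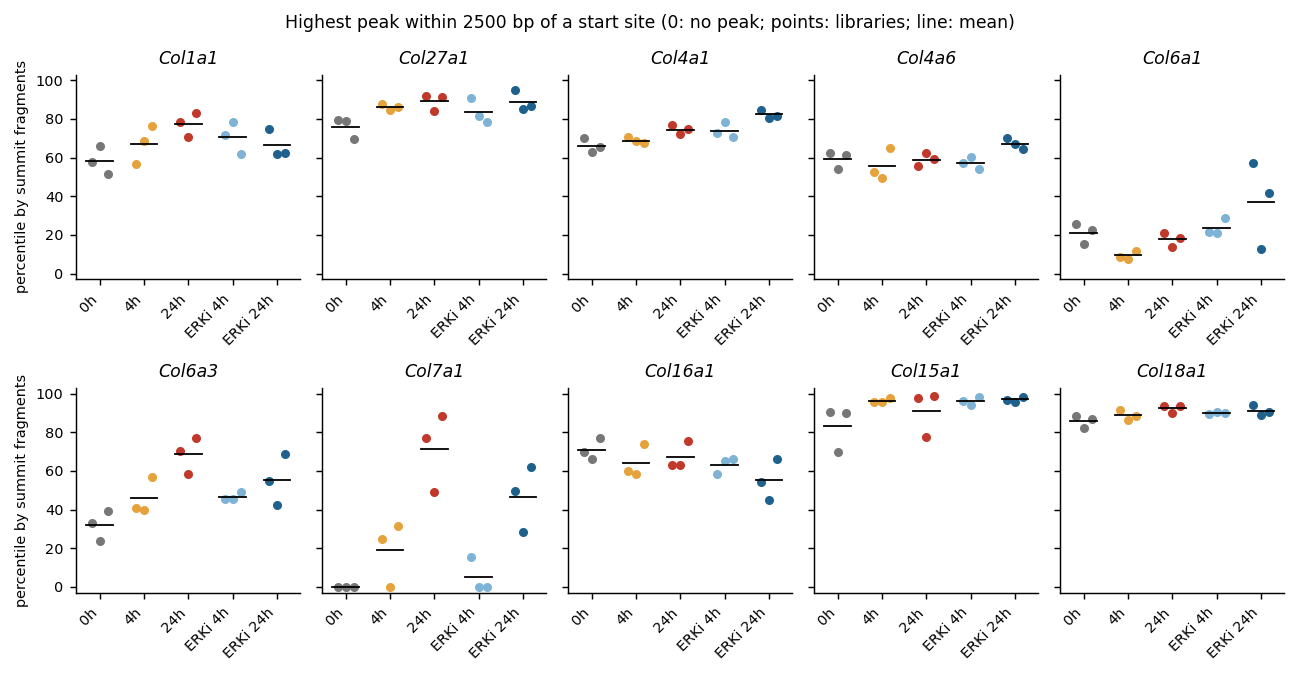
Percentile, by fragments at the summit, of the highest peak within 2500 bp of a start site (vertical axis, 0 where no peak was called) for 10 collagen genes; points are libraries and lines are means. Col7a1 had no peak at 0h and lay between 49.1 and 88.6 at 24h, and Col1a1, Col15a1, Col18a1 and Col27a1 were marked in every library.

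In the narrow promoter window, 3 of 14 collagen genes with a peak had a higher percentile in every 24h library than in every 0h library. They were Col1a1, Col4a2 and Col7a1, and none had a lower percentile. Of all 11503 genes with a promoter peak in these conditions, 5.63% were higher and 5.32% were lower. At 4h 1 of 9 collagen genes, Col15a1, was higher and none was lower, against 3.27% and 5.01% of all genes. Col4a2 and Col18a1 were higher in every ERKi library than in every DMSO library both at 4h and at 24h, and no gene was lower. They were 2 of 11 collagen genes with a peak at 4h and 2 of 13 at 24h. The shares among all genes were 5.09% higher and 1.65% lower at 4h, and 7.48% and 4.31% at 24h. At Col4a2 the percentiles were 76.7, 72.1 and 74.6 at 24h and 84.8, 80.7 and 81.6 at ERKi 24h. Within 2500 bp Col18a1 overlapped at both times, and Col4a1, Col4a2, Col4a5 and Col4a6 were above 24h in every ERKi 24h library. Col4a1 and Col4a2 share their peak in that window, as do Col4a5 and Col4a6, so these genes are not separate observations. The share among all genes was not computed for the 2500 bp window. No share of all genes is given for the ranking by fold enrichment, in which Col7a1 alone was higher at 24h than at 0h and Col1a1 was lower. The exact permutation p of each of these differences was 0.1.

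The call maps were summarised as regions found in all 3 libraries of one condition and in none of another. At 24h 30 of 193 collagen regions (15.5%) were gained against 0h and 3 (1.55%) were lost, while among all regions 5.98% were gained and 2.52% were lost. Of the gained regions, 15 belonged to Col6a3 and Col27a1, and 2 of the 30 were promoters. The other gained regions lay at Col18a1 (3), Col4a2, Col4a3, Col5a1 and Col24a1 (2 each), and Col4a1, Col6a6, Col7a1 and Col8a1 (1 each). The lost regions lay at Col10a1, Col15a1 and Col24a1. With only peaks of a -log10 q of at least 10 the gained collagen regions numbered 9, and with regions within 1000 bp merged they numbered 20. The shares of all regions under these 2 settings are not given here. At 4h no collagen region was gained or lost against 0h in this sense, where 1.65% and 0.565% of all regions were.

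To ask how the inhibitor acted on these regions, the ERKi libraries were compared with DMSO at the same time. At 4h no collagen region passed the region test and none was gained or lost, with 0.00743% of all regions higher, 0.260% lower, 0.316% gained and 0.449% lost. An unadjusted p below 0.05 in limma was found at 2 of the 43, and 1 was higher with the replicate block, which called 0.847% of all regions higher and 3.47% lower. In distal peak number, Col15a1 was above and Col4a1 below DMSO at 4h, 1 of 25 genes (4%) each, against 1.52% and 1.16% of all genes. Both directions turned with another choice of peaks: among peaks with a -log10 q of at least 10 the mean difference was -2.33 peaks for Col15a1 and 0.333 for Col4a1, and among the 40000 highest peaks that of Col15a1 was -1. At 24h 2 of 43 collagen regions (4.65%) were higher and 3 (6.98%) were lower with the inhibitor, and 3.53% and 3.98% of all regions were. These calls depended on the measure and the fit. No collagen region passed in either direction with fold enrichment or with -log10 p, and 0 were higher and 1 lower with a -log10 q of at least 10. The shares of all regions under these settings are not given here. With the replicate block 8 were higher and 8 lower, and that fit called 15.0% of all regions higher and 13.1% lower. The median log2 difference was 0.01 over collagen regions and 0.02 over all.

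The 3 regions that were lower at ERKi 24h were those of Col4a2 at 59.1 kb and Col6a5 at 36.4 kb, described above, and a region of Col24a1 at 128.5 kb (log2 -1.11 ± 0.32, adjusted p = 0.0439, lost without any 1 of 9 libraries with adjusted p up to 0.165). The 2 higher ones both lay in Col18a1. By calls, 2 of 207 collagen regions (0.966%) were found in all ERKi 24h libraries and no 24h library, at Col27a1 and in the Col4a1 and Col4a2 locus, and 7 (3.38%) in all 24h and no ERKi 24h library, at Col6a3 (2), Col4a2, Col6a6, Col18a1, Col24a1 and Col27a1. Among all regions the shares were 1.73% and 1.41%. In distal peak number Col4a5 was above and Col6a6 and Col8a1 were below 24h without overlap, 3.23% and 6.45% of 31 genes, and 4.03% and 3.39% of all genes were.

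Of the 30 collagen regions gained at 24h, 11 (36.7%) were called in all 3 ERKi 24h libraries, 10 (33.3%) in 2 of them, 3 (10%) in 1 and 6 (20%) in none. Among all 4376 gained regions these shares were 45.8%, 30.2%, 10.7% and 13.3%. The ERKi 24h libraries held 21, 11 and 24 of the 30, and replicate 2, with 11, had the fewest peaks of its condition. Since the gained regions were chosen for their calls at 24h and 0h, these shares are a description. Against 0h, 8 of the 43 tested regions (18.6%) were higher and 4 (9.30%) lower at ERKi 24h, where 11.2% and 9.13% of all regions were, and the replicate block gave 16 and 6, with 20.7% and 22.0% of all regions. The difference between the inhibitor's effects at 24h and at 4h was itself tested. It passed at no collagen region, 3 had an unadjusted p below 0.05, and with the replicate block it passed at the Col18a1 region 41.2 kb inside the gene (log2 0.76, adjusted p = 0.0167). This was 1 of 43 regions, and that fit called 2.57% of all regions higher and 1.85% lower.

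The genes that modify, secrete and cross-link collagen were read in the same way. Of 30 such genes, 17 had a tested region, 25 regions in all. At 24h 1 region (4%) was higher and 1 (4%) lower, where 10.3% and 7.85% of all regions were, and at 4h 1 (4%) was higher, against 3.62%. At ERKi 24h 2 (8%) were higher than at 24h, against 3.53%, and 4 (16%) were higher than at 0h, against 11.2%. No other passed in these comparisons or at ERKi 4h. Plod2, a lysyl hydroxylase that prepares collagen for cross-links, had a region 3.47 kb from its start that was 1.95-fold higher at 4h (adjusted p = 0.0169) and 2.75-fold higher at 24h (adjusted p = 0.000176), and at ERKi 24h it was 3.24-fold higher than at 0h (adjusted p = 4.84e-05). P4ha1, a catalytic subunit of prolyl 4-hydroxylase, had one that was 2.75-fold higher at ERKi 24h than at 24h (adjusted p = 0.00349), and Leprel1, a prolyl 3-hydroxylase, one that was 2.01-fold higher (adjusted p = 0.0390). The promoter of Leprel4, listed with that family, was 1.49-fold lower at 24h (adjusted p = 0.0469). Unlike the collagen calls, these calls were not examined with fold enrichment or without single libraries. In distal peak number, Plod2, Glt25d1, Bmp1, Pcolce2, Loxl1 and Loxl4 were above 0h in every 24h library, and none was below. They were 6 of 24 genes with a distal peak in any library, against 12.5% above and 4.51% below of all genes. The shares of all genes count only those with a distal peak in the 2 conditions compared. The 24 genes include Lepre1 and Leprel2, which had no distal peak at 0h or 24h. Plod2 was also above 0h at 4h, 1 of 24 genes, where 4.36% of all genes were. At ERKi 24h, with 3, 3 and 2 distal peaks, Plod2 was below the 4, 4 and 5 of 24h. This too was 1 of 24 genes, where 3.39% of all genes were. Bmp1, the protease that cleaves the C-propeptide of fibrillar collagens, had 1, 1 and 0 distal peaks at 0h, 6, 6 and 4 at 24h and 8, 4 and 8 at ERKi 24h.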

How the data were processed

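H3K27ac was measured by ChIP-seq (antibody ab4729) in 15 libraries of NMuMG/E9 cells, 3 for each of 5 conditions. The RNA-seq and input samples of the series were not analysed here. The submitters' processing notes name bowtie 0.12.9, samtools 0.1.19, MACS2 2.0.10.20120913 and the mm9 build. The deposited peak files hold, for each library called on its own, a fold enrichment (a ratio), a -log10 p, a -log10 q and an integer score per peak. The control used for calling is not given in the sources used here. The fragments at each summit and the local background were recovered from the deposited fold enrichment, which is (fragments + 1)/(background + 1), and the -log10 p of a Poisson test, to within 0.005. All but 25 of 893719 peaks were recovered, and none of those 25 lay at a collagen gene. Read totals are unknown, so no counting interval is given.

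Peaks were assigned to the nearest start site of the GENCODE vM1 annotation within 100 kb. Promoters ran from 1000 bp before to 100 bp after a start site. Peaks that overlapped between libraries were joined as regions, and log2 fragments, centred on the library median, were compared over the 26934 regions with a peak in all libraries by limma 3.58.1 in R 4.3.3 (trend, Benjamini-Hochberg over all regions, threshold 0.05). Distal peak numbers and promoter percentiles were compared by two-sided exact permutation tests, for which the smallest p with 3 against 3 libraries is 0.1, and by whether the libraries of the groups overlapped. Regions that are named passed the region test or were gained or lost in all libraries, and genes that are named did not overlap in distal peak number; the others were named to complete their class. Same-numbered libraries of different conditions deviated together: the correlation of deviations from the condition means exceeded 0.1 in 30 of 30 pairs (mean 0.581). With different numbers it did so in 5 of 60 pairs (mean -0.284). Deviations within a condition sum to 0, so the negative mean follows from the positive one and is not separate evidence. The labels state no pairing, and the replicate numbers were treated as pairing the libraries. The recovery of fragments and the region test were tested on simulated data. The collagen list, the marker and pathway lists and the tests were chosen with earlier results of these data known. The alternatives were other measures, scaling, peak thresholds, windows, start sites, left-out libraries and a replicate block. Leaving out libraries for the call counts was added after seeing the data. The sequence and position of 1 region are not reported here.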

Additional observations from a re-analysis of the deposited data

How the results depend on the processing

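Calls depended most on the measure of height. Over the named region comparisons, 15 of 32 changed sign with fold enrichment, 16 no longer passed and 1 was kept. With -log10 p none changed sign, 22 no longer passed and 10 were kept. The log2 differences of opposite sign at 24h against 0h were -0.41 (Col1a1, 0.8 kb), -0.17 (Col15a1, 120.3 kb), -0.00295 and -0.32 (Col4a2, 59.1 and 80.6 kb) and 0.39 (Col6a5 upstream). At 4h the Col15a1 region gave -0.08, and at ERKi 24h against 24h the Col18a1 region at 50.1 kb gave -0.03. At ERKi 24h against 0h they were -0.01 (Col18a1, 30.3 kb), 0.03 and 0.19 (Col24a1, at 201.2 kb and the region that fell most), -0.38 and -0.21 (Col15a1, 71.4 and 120.3 kb), 0.25 (Col16a1), -0.03 (start of Col4a1 and Col4a2) and -0.14 (Col4a2, 80.6 kb). The cause was not tested.

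Shares over all regions or genes are given only for the main setting and the replicate block. The other counts below describe the collagen genes alone. Numbers of regions higher and lower at 24h against 0h were 9 and 5. They were 1 and 1 with fold enrichment, 5 higher with -log10 p, 19 and 9 with the replicate block, and 4 and 1 with a -log10 q of at least 10. At 4h, 1 region was higher. It was 0 with fold enrichment, with -log10 p and with a -log10 q of at least 10, 10 with the replicate block (and 1 lower), 2 with only the libraries compared and 2 with start sites of protein-coding genes only. At ERKi 4h the block gave 1 higher region. At ERKi 24h against 24h, 2 higher and 3 lower regions became 0 and 0 with fold enrichment and with -log10 p, 8 and 8 with the block, 0 and 1 with a -log10 q of at least 10, and 1 lower with only the libraries compared. At ERKi 24h against 0h, 8 higher and 4 lower regions became 0 higher with fold enrichment, 1 and 1 with -log10 p, 16 higher with the block, and 3 and 2 with a -log10 q of at least 10. Every condition holds 1 library of each replicate number, so the block leaves each difference unchanged and could not change a direction. Its permutations give no p below 0.25 for a distal number.

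For distal numbers, the difference of 55.3 peaks between 24h and 0h was 33.0 with a -log10 q of at least 10 and 28.0 with the 40000 highest peaks. Genes above 0h at 24h numbered 4 with that q, with 1 below under both settings, and 1 gene was below at 4h with the 40000 highest peaks. At ERKi 4h, 0 genes were above and 2 below with that q, and 0 and 0 with protein-coding starts. At ERKi 24h, 2 were above with the 40000 highest peaks. The difference of Col15a1 at ERKi 4h was -2.33 with that q and -1 with the 40000 highest peaks, and that of Col4a1 was 0.333 with that q, each opposite in sign. For promoters, 3 genes were above at 24h. With fold enrichment 1 was above and 1 below, with -log10 p 1 was above, and within 2500 bp 7 were. At 4h the numbers above were 0 with fold enrichment and 3 within 2500 bp, with 1 below. At ERKi 4h they were 0 with fold enrichment and with -log10 p. At ERKi 24h they were 0 above and 1 below with fold enrichment, 1 above with -log10 p and 4 within 2500 bp. The numbers within 2500 bp count both genes of a pair that shares 1 peak.

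For calls found in all libraries of one condition and none of the other, the 30 gained at 24h were 9 with a -log10 q of at least 10, and the 3 lost were 1 with regions merged within 1000 bp. At 4h, 4 were gained and 2 lost with that q, and 2 gained with merging. At ERKi 4h, 1 was lost under each. At ERKi 24h, 1 was gained and 3 lost with that q, and 0 gained and 3 lost with merging.

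Without single libraries, the higher regions at 24h numbered 6 to 12 and the lower ones 3 to 5, at 4h 0 to 1 higher, at ERKi 24h against 24h 0 to 2 higher and 0 to 4 lower, and against 0h 4 to 9 and 1 to 4. The distal difference was 44.8 to 67.8 peaks at 24h, -1.67 to 13.3 at 4h, 2.67 to 17.7 at ERKi 4h and -19.5 to 9 at ERKi 24h. Genes without overlap in distal number were 8 to 13 above and 0 to 1 below at 24h, 2 to 3 and 0 to 1 at 4h, 1 to 5 and 1 to 2 at ERKi 4h, and 1 to 5 and 2 to 5 at ERKi 24h. For promoters the ranges were 3 to 6 above at 24h, 1 to 2 and 0 to 1 at 4h, 2 to 3 and 0 to 1 at ERKi 4h, and 2 to 3 and 0 to 4 at ERKi 24h. Gained and lost calls, whose number can only grow when a library is left out, ranged from 30 to 54 and 3 to 6 at 24h, 0 to 5 and 0 to 2 at 4h, 0 to 3 each at ERKi 4h, and 2 to 10 and 7 to 14 at ERKi 24h. The libraries whose absence ended a named call were, at 24h against 0h, 0h replicates 1 and 3 and 24h replicates 1 and 2 for Col18a1 at 41.2 kb; 0h replicate 1 and 24h replicates 1 and 3 for Col18a1 at 30.3 kb; 0h replicates 1 and 2 and 24h replicates 1 and 3 for the region upstream of Col4a1; 0h replicate 2 and 24h replicates 2 and 3 for the region upstream of Col6a5; and, for Col1a1, replicates 1 and 3 of 0h and 24h and replicates 1 and 2 of 4h, ERKi 4h and ERKi 24h. At 4h they were 0h replicates 1 and 2 and 4h replicates 1 and 3 (Col15a1). At ERKi 24h against 24h they were 24h replicate 1 and each ERKi 24h library for Col18a1 at 50.1 kb, 24h replicates 1 and 2 and ERKi 24h replicates 1 and 3 for Col18a1 at 41.2 kb, ERKi 24h replicate 2 for Col4a2, 24h replicate 3 and ERKi 24h replicate 2 for Col6a5, and each 0h and 24h library, 4h replicate 1 and ERKi 24h replicates 1 and 2 for Col24a1. Against 0h, ERKi 24h replicate 1 or 3 was among them for each of 8 such regions, together with 0h libraries.

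Much of the call maps consists of small peaks, and the local background moved with the height at the named regions. Read totals are unknown, and 3 libraries a condition limit every count.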
